A study of Mus musculus with 12 samples.

Results

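The hippocampal transcriptome of older mice was compared between an enriched environment (EE) and standard housing (SH). The comparison used 6 of the 12 libraries of the series, namely all 3 aged EE libraries and all 3 aged SH libraries, taken by their labels. The animals were wild type C57/BL6 male mice labelled as aged 14 to 17 months, untreated apart from their housing, and each library was made from 1 hippocampus of 1 animal. The paper gives the age of its mice at the start of the experiments. Tissue was taken after weeks of housing and further maze training, when the animals were older. EE cages held running wheels, tunnels, ladders and toys that were exchanged regularly, whereas SH mice lived in ordinary laboratory cages. All animals belonged to a cohort that had been trained in the Morris water maze, a test of spatial learning, so the groups share that training. The other 6 libraries came from young mice of the same cohort, 3 in EE and 3 in SH. Wheels, objects and space came together in EE and cannot be told apart here.

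Environmental enrichment is a standard way to raise sensory, motor and social stimulation in rodents, and it is known to act on learning, synaptic plasticity and the survival of newly born granule cells. The hippocampus encodes spatial and contextual memory through the dentate gyrus and the CA fields, and memory there depends on activity-dependent transcription and on a balance of protein kinases and phosphatases. Expression was measured by SAGE-Seq, which counts 1 short tag per polyadenylated transcript beside the NlaIII site nearest the poly(A) tail. Values are RPM, the signal of a gene divided by its library's total and multiplied by 1000000, and they do not grow with transcript length.

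A gene is read only through its tag, so the tags of the genes on which the results turn are shown here, as predicted from the GENCODE annotation of mm9. Each starts with the NlaIII site, in capitals, and runs 27 bases in the direction of transcription. Each of these 8 tags occurs in the annotated coding transcripts of 1 gene only, and all but the Mrps22 tag lie in the 3′ UTR.
Dynlrb1: CATGccattgatcaagggtcgctctgc
Pfn1: CATGggctgggggctggggctggatgg
Dstn: CATGgcaccgaacactgtagagatgca
Lgals1: CATGtgttcttggtctcagtgacctct
Zfp385b: CATGcttcccctcccccctagtagccc
Mrps22: CATGctccatccagatggccagtcagc
Bdnf: CATGtaaaacaagaaaaaatatttatt
Ppp1r1a: CATGcacaaatagagaaatggtctgtg
The Dynlrb1 tag lies at chr2:155075807-155075833 on the plus strand in exon 4 of 4, and the Pfn1 tag at chr11:70465480-70465506 on the minus strand in exon 3 of 3. The Dstn tag is at chr2:143768973-143768999 (plus, exon 4 of 4) and the Lgals1 tag at chr15:78760714-78760740 (plus, exon 4 of 4). On the minus strand, the Zfp385b tag is at chr2:77248865-77248891 (exon 8 of 8) and the Mrps22 tag at chr9:98490500-98490526 (exon 7 of 8, coding sequence). The Bdnf tag is at chr2:109567008-109567034 (plus, exon 3 of 3) and the Ppp1r1a tag at chr15:103360779-103360805 (minus, exon 7 of 7). The Bdnf tag sits 197 bases before the end of its transcript and the Ppp1r1a tag 96 bases before it, so an RNA that ended upstream of the site would not be counted by this tag.

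Totals of the aged libraries were 12016751 to 16035089 reads in EE and 6928729 to 14015826 reads in SH (two-sided exact permutation test, p = 0.3, where 3 against 3 allow no p below 0.1), so 1 RPM stood for about 7 to 16 reads. The mean log2 level of 7 markers of CA1 and the dorsal hippocampus, Lct among them, was set against that of 17 ventral markers. It exceeded the ventral level by 1.70 and 1.45 in aged EE libraries 1 and 3. The difference was -0.13 in aged EE library 2 and -0.71 to -0.11 in aged SH (exact permutation p = 0.2). This measure weighs every gene alike. The summed RPM of the 8 dorsal genes listed had no such pattern, at 646, 529 and 437 in aged EE and 518, 751 and 463 in aged SH. That of the 17 ventral genes was lowest in aged EE libraries 1 and 3, at 896, 1094 and 773 in aged EE and 1134, 1097 and 956 in aged SH. Genes of the choroid plexus had a mean log2 level of 5.52 in aged EE library 3 and 2.56 to 2.70 in the other 5 aged libraries (exact permutation p = 0.5), and all 20 genes of that list were highest in aged EE library 3 among all 12 libraries. There Kcnj13 was at 44.2 RPM and Folr1 at 17.5 RPM, against at most 1.47 and 1.21 RPM in the other aged libraries, while Ttr, the most abundant choroid plexus transcript, was read at only 2.62 RPM there and at 0 to 0.214 RPM in the other aged libraries, and whether its tag is counted under this entry is not known here. Among 5388 genes with a mean of at least 20 RPM, 54 were at least 2-fold above all 11 other libraries in aged SH library 2, against 0 to 6 genes in any other library. Wfs1, a defining marker of hippocampal CA1, was present in all 6 aged libraries (82.5, 47.6 and 58.8 RPM in aged EE and 53.7, 66.1 and 72.5 RPM in aged SH). Many results that rest on aged EE library 3, aged SH library 2 or the dorsal markers are given with these values or with the value without that library beside them. The range of every list median without any 1 aged library is drawn in the plot of gene lists.

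**Figure D1:**
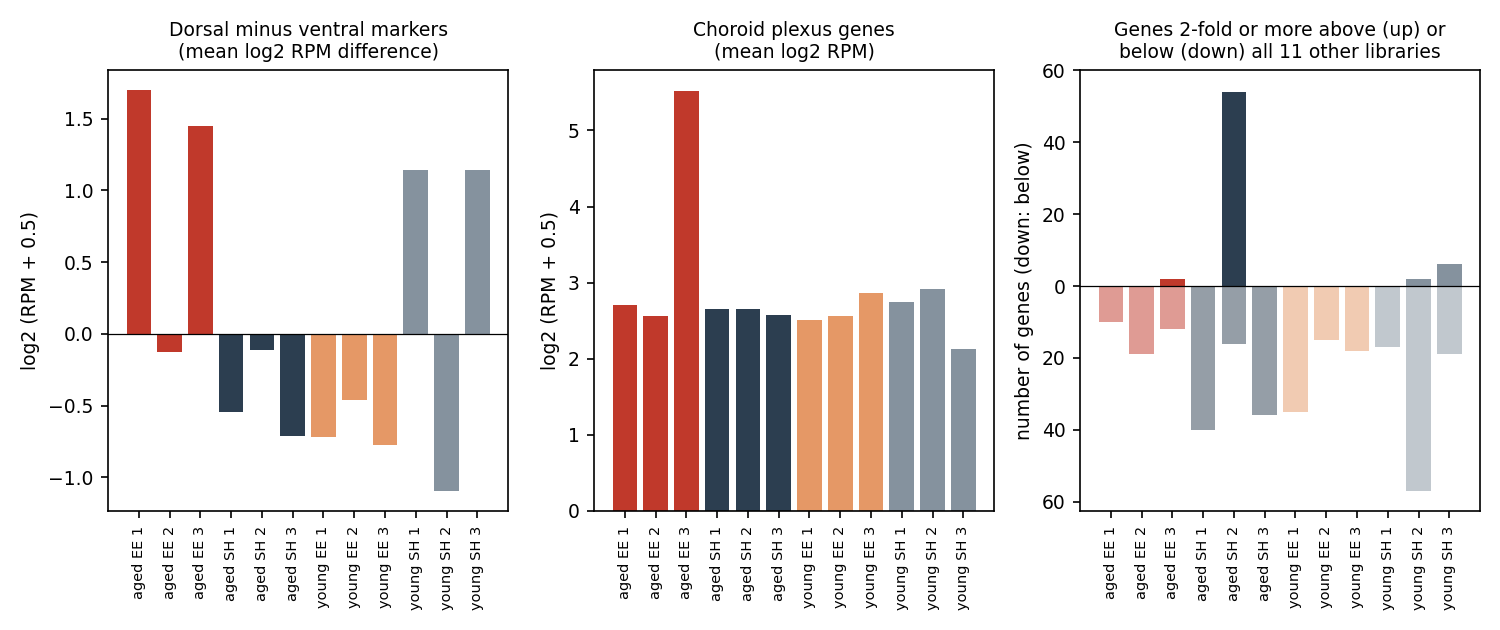
Measures of each of the 12 libraries. Left, mean log2 level of CA1 and dorsal hippocampus markers minus that of ventral markers, highest in aged EE libraries 1 and 3 (1.70 and 1.45). Middle, mean log2 level of 10 choroid plexus genes, 5.52 in aged EE library 3. Right, number of genes at least 2-fold above or below every other library, with 54 above in aged SH library 2.

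Most genes differed little between the aged housing groups. Over 12744 genes tested, the log2 difference (aged EE minus aged SH, on log2 of RPM + 0.5) had a median of -0.02, 47.3% of genes were higher, and 5% of genes lay below -0.64 and 5% above 0.61. Only Dynlrb1 passed an adjusted p of 0.1 (limma, Benjamini-Hochberg over all genes), which is 0.00785% of genes, and the next smallest adjusted p was 0.504. At an unadjusted p under 0.05, 1146 genes (8.99%) differed, 442 of them higher (3.47%) and 704 lower (5.52%). Every aged EE library lay above every aged SH library for 831 genes (6.52%) and below for 1299 genes (10.2%), together 16.7% of genes, and these shares are the background for every count of non-overlapping genes given from here on. With TMM scaling in place of totals the median moved by 0.04 and the non-overlapping genes were 1060 higher (8.32%) and 1135 lower (8.91%), so the excess of lower genes depends on the scaling. On whole reads recovered from the deposited values, edgeR's likelihood ratio test called 16 genes (0.126%), with 7 higher (0.0549%) and 9 lower (0.0706%). DESeq2 called 103 (0.808%), with 36 higher (0.282%) and 67 lower (0.526%), and edgeR's quasi-likelihood test called 0 (1067 genes, 8.37%, at an unadjusted p under 0.05). DESeq2 and the likelihood ratio test shared 14 called genes, Dynlrb1 among them. Of the DESeq2 calls, 21 lower genes are gamma protocadherins that share 1 measurement. Ccl21b, Ccl21c, Gm10591 and Gm13304 also had identical values, and Rps26 and Gm6654 nearly so. The lower likelihood ratio calls Mrps22, Atm, D14Abb1e, Mid1ip1 and Chrna4 were at least 2-fold higher in aged SH library 2 than in any other library. So were the gamma protocadherins, Fcho1, Impdh1 and Sncb among the lower DESeq2 calls. Enpp2, a choroid plexus gene that DESeq2 called higher, was at 693 RPM in aged EE library 3 and at most 102 RPM elsewhere.

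**Figure D2:**
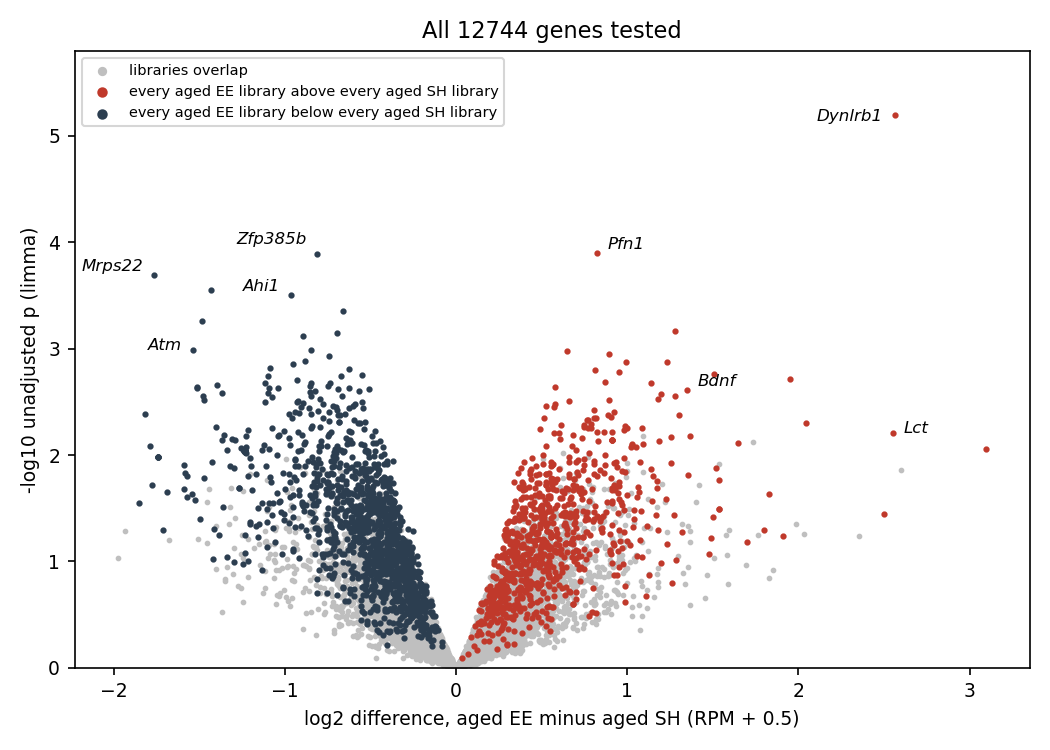
Each point is 1 of 12744 genes, with the log2 difference between aged EE and aged SH on the x axis and -log10 of the unadjusted limma p on the y axis. Coloured points are genes whose 3 aged EE libraries all lie above (831) or all below (1299) the 3 aged SH libraries, and Dynlrb1 stands apart at 2.56.

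Dynlrb1, a roadblock light chain of cytoplasmic dynein, the motor that carries cargo along microtubules toward the cell body, gave the smallest p. It was at 292, 246 and 251 RPM in aged EE libraries 1, 2 and 3 and at 70.3, 51.8 and 23.1 RPM in aged SH libraries 1, 2 and 3. No library overlapped, and the log2 difference was 2.56 (SE 0.33, adjusted p = 0.0804 from limma). In young mice it was at 216, 308 and 287 RPM in EE and 246, 154 and 214 RPM in SH, so the aged SH libraries were the ones that stood apart, below all 9 others. The difference kept its size, 2.11 to 2.90, without any 1 aged library. Its adjusted p in limma exceeded 0.1 without any 1 of the aged EE libraries (0.371, 0.231 and 0.507 without libraries 1, 2 and 3) and without any 1 of the young libraries (at least 0.103), and in a limma fit to the 6 aged libraries alone the adjusted p was 0.392. By edgeR's likelihood ratio test the adjusted p was 8.0e-08 and by the quasi-likelihood test 0.135.

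The rest of the dynein machinery did not share that pattern. Of 22 dynein and dynactin genes tested, which give 19 distinct measurements because Dynlt1a, Dynlt1b, Dynlt1c and Dynlt1f have the same reads, 8 were higher and 14 lower with a median log2 difference of -0.01, and Dynlrb1 and Dynll1 were higher without overlap. Dynll1, the most abundant light chain, was at 417, 484 and 401 RPM in aged EE and 351, 399 and 364 RPM in aged SH, with neighbouring libraries of the groups nearly equal (log2 difference 0.22, SE 0.19). Dync1i2, an intermediate chain, was at 224, 265 and 273 RPM in aged EE and 254, 254 and 152 RPM in aged SH, where aged SH library 3 alone was low (log2 difference 0.24, SE 0.21). The paralog Dynlrb2 was read at no more than 2.74 RPM in any aged library. Dctn1, the dynactin subunit that binds dynein, was at 66.02, 61.3 and 49.8 RPM in aged EE and 43.7, 56.8 and 26.3 RPM in aged SH (log2 difference 0.54, SE 0.26), and Dctn3 at 273, 136 and 231 RPM in aged EE and 267, 342 and 289 RPM in aged SH (log2 difference -0.54, SE 0.30).

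Among the 12 higher genes with the smallest p, 2 act on actin filaments. Pfn1, profilin, which delivers actin monomers to growing filaments, was at 84.9, 86.1 and 84.9 RPM in aged EE and 49.6, 52.1 and 42.7 RPM in aged SH. Its aged EE libraries were nearly equal and its groups were separated by more than 30 RPM (log2 difference 0.82, SE 0.15). Dstn, destrin, which severs actin filaments, was at 159.96, 195 and 187 RPM against 110.4, 131 and 105 RPM (log2 difference 0.65, SE 0.15). Both had an adjusted p of 0.504 in limma, while Pfn1 passed in the likelihood ratio test (adjusted p = 0.0367) and in DESeq2 (0.00055). Without any 1 aged library the log2 difference of Pfn1 stayed between 0.74 and 0.88.

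The other leading higher genes have varied roles. Lgals1, galectin-1, a secreted lectin found in glia and neural progenitors, was at 70.9, 45.1 and 81.1 RPM in aged EE and 32.4, 30.2 and 40.4 RPM in aged SH, lowest in aged EE library 2 and highest in aged EE library 3. Bok, a BCL2 family member that is also a marker of CA3, was at 85.3, 124 and 161 RPM against 47.8, 78.2 and 57.2 RPM, and the highest aged SH library came close to the lowest aged EE library. Zbtb1, a zinc finger repressor, was at 12.6, 12.98 and 17.8 RPM in aged EE and 8.85, 8.71 and 6.49 RPM in aged SH. Erf, an ETS domain repressor, was at 21.1, 19.7 and 24.9 RPM in aged EE and 12.1, 13.02 and 10.1 RPM in aged SH, with a wide gap between the groups. Myst3, a histone acetyltransferase, was at 10.6, 14.6 and 12.4 RPM in aged EE and 2.71, 4.09 and 2.02 RPM in aged SH (log2 difference 1.95, SE 0.49), and Sf3b2, a component of the U2 spliceosome particle, at 9.68, 6.57 and 6.73 RPM in aged EE and 3.14, 4.51 and 2.16 RPM in aged SH (log2 difference 1.14, SE 0.29). Txnl4a, another spliceosome protein, was at 94.7, 74.4 and 70.6 RPM in aged EE and 36.7, 40.6 and 22.7 RPM in aged SH (log2 difference 1.28, SE 0.28). Fam84a was at 129, 103 and 153 RPM in aged EE and 77.5, 72.5 and 49.2 RPM in aged SH, and Lrrc10b at 35.02, 30.7 and 49.5 RPM in aged EE and 14.3, 10.8 and 13.9 RPM in aged SH. Lrrc10b was also high in young SH libraries 1 and 3 (52.3, 20.2 and 50.7 RPM in young SH), the libraries with the dorsal marker balance among the young.

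**Figure D3:**
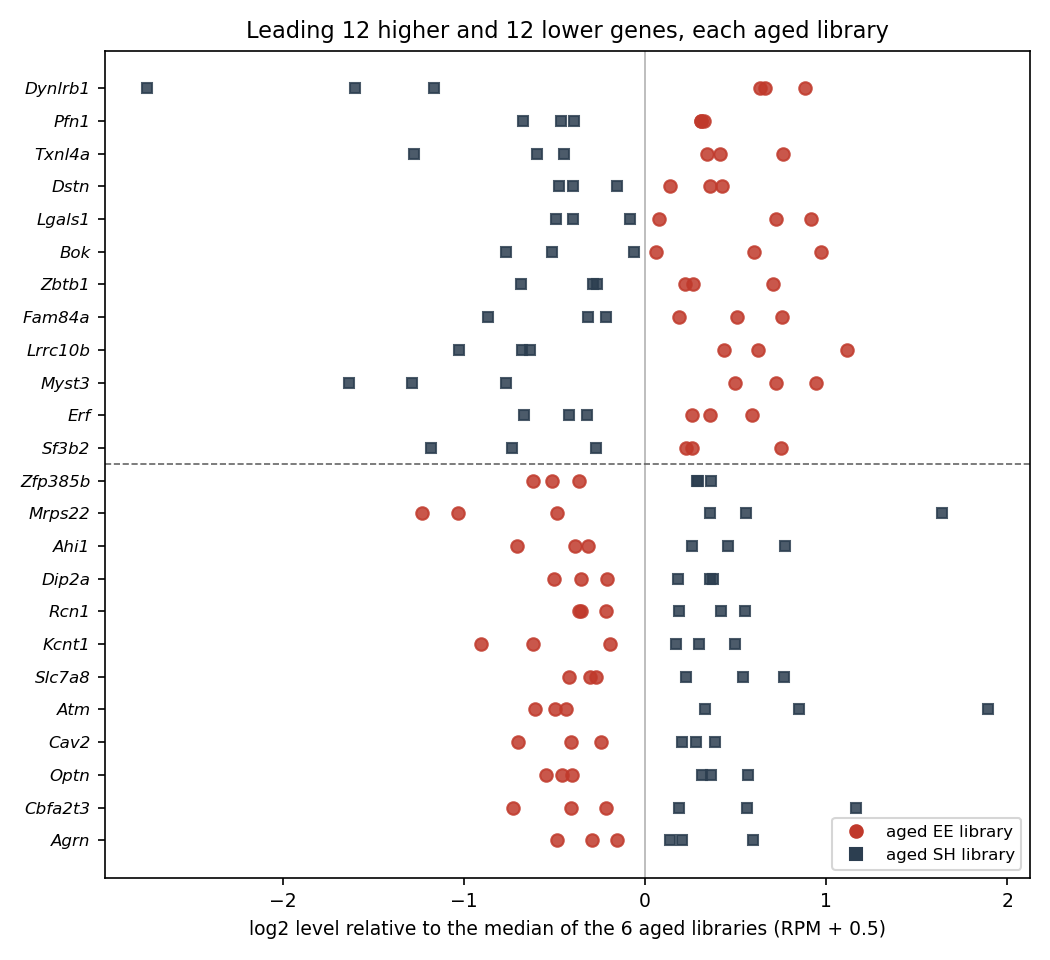
The 12 higher and 12 lower genes with the smallest p among those with a mean of at least 5 RPM and no overlap between groups. Each point is 1 aged library, plotted as log2 of its level over the median of the 6 aged libraries, with aged EE as circles and aged SH as squares. Dynlrb1 has the widest gap, and aged SH library 2 is the far square of Mrps22 and Atm (78.1 and 60.9 RPM).

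The 12 leading lower genes were led by Zfp385b, a zinc finger protein, at 13.4, 11.2 and 12.04 RPM in aged EE and 22.5, 21.4 and 21.4 RPM in aged SH. The aged SH libraries lay within the range of the 6 young libraries (20.4, 21.1 and 24.6 RPM in EE and 20.4, 21.5 and 20.6 RPM in SH), and the aged EE libraries were below all 9 others (log2 difference -0.81, SE 0.15). Mrps22, a protein of the mitochondrial ribosome, was at 10.3, 17.6 and 11.8 RPM against 31.96, 78.1 and 36.7 RPM, with aged SH library 2 more than 2-fold above any other (log2 difference -1.77, SE 0.33, and -1.38 without that library). Ahi1, a ciliary protein whose human ortholog is mutated in Joubert syndrome, was at 109.8, 88.01 and 116 RPM against 198, 246 and 172 RPM (log2 difference -0.97, SE 0.19). These 3 genes passed in both count tests that made calls, with adjusted p of 0.0909, 0.00792 and 0.0909 for Zfp385b, Mrps22 and Ahi1 in the likelihood ratio test.

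Genes of membrane transport and of DNA repair were also among the 12. Kcnt1, a sodium-activated potassium channel, was at 15.5, 21.1 and 12.7 RPM in aged EE and 29.8, 27.2 and 34.2 RPM in aged SH, and Slc7a8, a carrier of neutral amino acids, at 13.6, 15.1 and 14.7 RPM in aged EE and 31.5, 21.5 and 26.8 RPM in aged SH. Atm, the kinase that senses DNA double-strand breaks, was at 11.7, 11.2 and 10.4 RPM in aged EE and 29.3, 60.9 and 20.3 RPM in aged SH, where aged SH library 2 was the highest and the log2 difference of -1.54 became -1.11 without it. Optn, an autophagy receptor, was at 5.202, 5.41 and 4.86 RPM in aged EE and 9.56, 9.24 and 11.1 RPM in aged SH, and Cav2, a caveolin of vascular cells, at 21.2, 23.9 and 17.2 RPM in aged EE and 34.5, 32.8 and 37.2 RPM in aged SH. Rcn1, a calcium-binding protein of the endoplasmic reticulum, was at 18.2, 16.4 and 16.5 RPM in aged EE and 31.4, 24.3 and 28.6 RPM in aged SH. Agrn, agrin, a proteoglycan of synapses and basement membranes, was at 131, 144 and 115 RPM in aged EE and 177, 244 and 185 RPM in aged SH (log2 difference -0.63, SE 0.15). Dip2a was at 128, 142 and 116 RPM in aged EE and 186, 213 and 211 RPM in aged SH and Cbfa2t3, a transcriptional corepressor, at 7.18, 10.5 and 9.11 RPM in aged EE and 18.3, 28.03 and 14.01 RPM in aged SH. DESeq2 called all 24 of the leading genes and the likelihood ratio test 10 of them, but since they were picked for small p these counts describe the tools and support nothing further.

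Protein phosphatase 1 (PP1) removes phosphates that synaptic kinases add and is known to restrain memory formation, and the study asked whether enrichment acts on it. Of 25 genes for PP1 catalytic, inhibitor and regulatory subunits tested (of 30 listed), 19 were higher and 6 lower in aged EE with a median log2 difference of 0.32, against -0.02 over all genes. Non-overlapping groups were seen for 4 higher genes and 1 lower gene, 20% of the list against 16.7% of all genes. By direction, 16% were higher against 6.52% of all genes, and 4% lower against 10.2%. None of the 25 genes passed the adjusted threshold in limma, while DESeq2 called 1 member, Ppp1r1a (adjusted p = 0.0994). Among catalytic subunits, Ppp1cc was at 334, 442 and 372 RPM in aged EE and 293, 275 and 276 RPM in aged SH, Ppp1ca at 102, 154 and 117 RPM in aged EE and 116, 25.2 and 76.6 RPM in aged SH and Ppp1cb at 74.8, 84.3 and 82.2 RPM in aged EE and 93.3, 78.1 and 67.1 RPM in aged SH. Of these, only Ppp1cc separated the groups (log2 difference 0.44, SE 0.18), while Ppp1ca was low in aged SH library 2 (log2 difference 1.003, SE 0.43).

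Among the inhibitors of PP1, Ppp1r1a, inhibitor-1, which blocks PP1 once protein kinase A has phosphorylated it, was at 506, 178 and 513 RPM in aged EE and 188, 164 and 188 RPM in aged SH. Aged EE libraries 1 and 3 stood far above every aged SH library, whereas aged EE library 2 lay within the aged SH range, so the groups overlapped (log2 difference 0.996, SE 0.35, with 0.75 and 0.74 without aged EE libraries 1 and 3 and 1.502 without library 2). Aged EE libraries 1 and 3 are also those with the dorsal marker balance. Ppp1r1b, DARPP-32, was at 17.4, 3.66 and 21.6 RPM in aged EE and 15.1, 13.8 and 10.7 RPM in aged SH, with no common direction, and Ppp1r14c at 4.103, 4.24 and 2.31 RPM in aged EE and 4.42, 5.77 and 10.5 RPM in aged SH, lower without overlap (log2 difference -0.83, SE 0.35). Ppp1r14a was at 20.7, 10.7 and 16.5 RPM in aged EE and 10.2, 10.1 and 15.3 RPM in aged SH, Ppp1r2 at 83.2, 93.8 and 70.4 RPM in aged EE and 77.1, 76.5 and 79.96 RPM in aged SH, and neither separated the groups.

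Regulatory and targeting subunits of PP1 gave mixed values. Ppp1r16b was at 279, 204 and 307 RPM in aged EE and 179.9, 153 and 134 RPM in aged SH, higher without overlap (log2 difference 0.75, SE 0.39). Ppp1r9b, spinophilin, which holds PP1 in dendritic spines, was at 845, 679 and 812 RPM in aged EE and 468, 712 and 182 RPM in aged SH, where aged SH library 3 was low and library 2 within the aged EE range. Ppp1r9a, neurabin, was at 129, 111 and 134 RPM in aged EE and 80.7, 119 and 100.3 RPM in aged SH, and Ppp1r13b at 96.3, 92.4 and 145 RPM in aged EE and 116, 74.1 and 77.4 RPM in aged SH. Ppp1r3c, a glycogen targeting subunit, was at 62.2, 76.9 and 55.5 RPM in aged EE and 55.9, 53.1 and 28.9 RPM in aged SH and overlapped by 1 library, and Ppp1r12a, the myosin targeting subunit, was at 12.02, 19.6 and 16.96 RPM in aged EE and 6.64, 16.6 and 9.09 RPM in aged SH. Without any 1 aged library the list kept 17 to 21 of 25 genes higher and a median of 0.21 to 0.41. In young mice its median was -0.22.

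**Figure D4:**
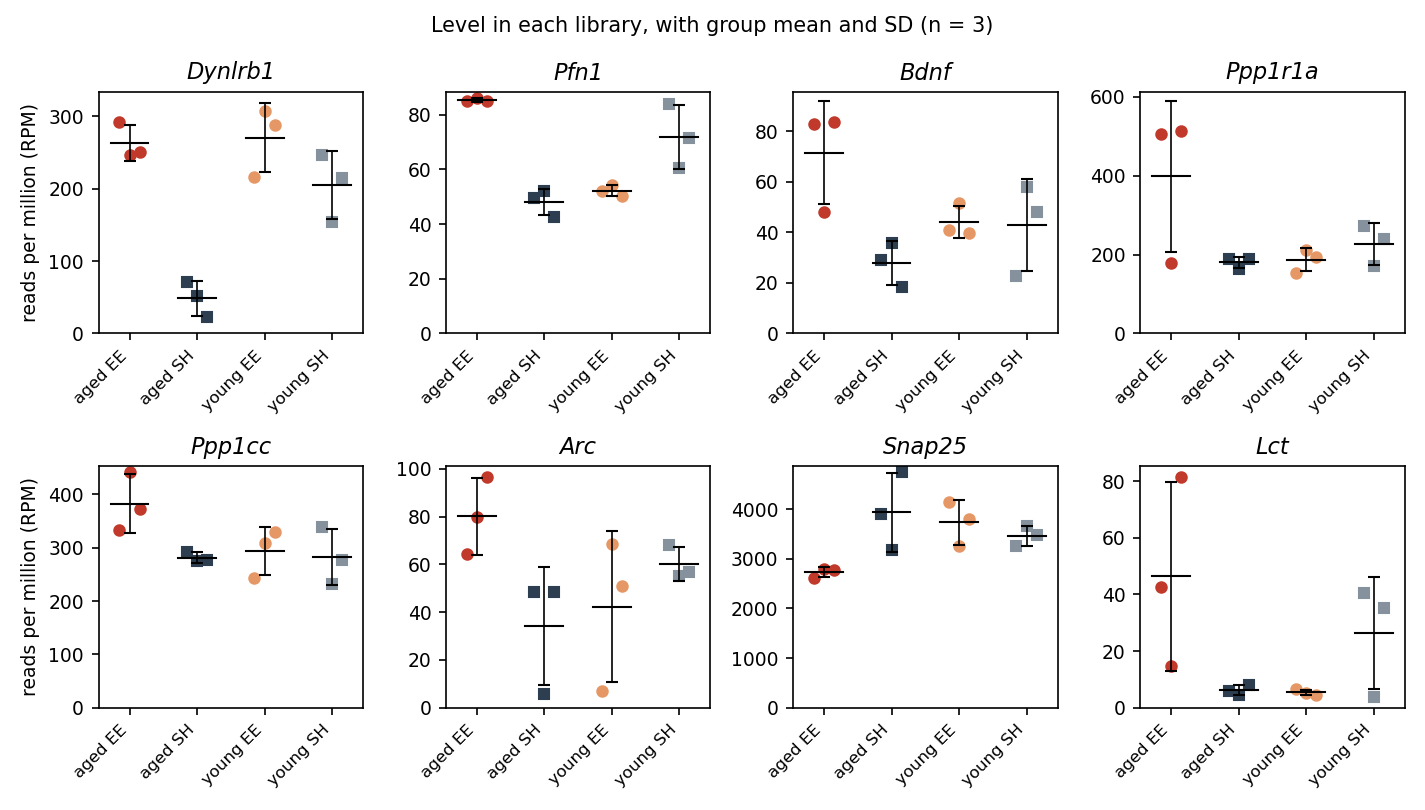
RPM of 8 genes in each of the 12 libraries, grouped by age and housing, with the group mean and SD (n = 3). Dynlrb1 is low in aged SH alone (23.1 to 70.3 RPM), Pfn1 is high in aged EE (84.9 to 86.1 RPM), and Ppp1r1a and Lct are high in aged EE libraries 1 and 3.

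Genes for PP2A and calcineurin, the other large phosphatase families of the brain, had no common direction. Of 23 tested, 13 were higher and 10 lower (median 0.08), with 1 higher and 2 lower without overlap. Ppp2r2b, a brain regulatory subunit of PP2A, was at 92.9, 112 and 74.1 RPM in aged EE and 176, 139 and 188 RPM in aged SH, so every aged EE library was below every aged SH library (log2 difference -0.86, SE 0.24). Ppp2r5a was at 14.95, 17.1 and 14.4 RPM in aged EE and 23.1, 31.5 and 16.2 RPM in aged SH, overlapping by 1 library. Ppp3r1, the regulatory subunit of calcineurin, was at 1812, 1454 and 1899 RPM in aged EE and 1423, 1195 and 1561 RPM in aged SH. On the kinase side, 13 calmodulin kinase genes had a median of 0.02. Camk2a, the abundant kinase of excitatory synapses, was at 2637, 1527 and 2307 RPM in aged EE and 1463, 1945 and 1773 RPM in aged SH, without separation. Camk4, a nuclear kinase that acts on CREB, was at 98.5, 106 and 103 RPM in aged EE and 148, 128 and 173 RPM in aged SH, lower in every aged EE library (log2 difference -0.54, SE 0.16), while its activator Camkk1 was at 116, 112 and 124 RPM in aged EE and 85.2, 90.2 and 52.5 RPM in aged SH, higher in every one (log2 difference 0.66, SE 0.23). Of 24 genes of cAMP signaling, 15 were lower (median -0.14, and -0.03 without aged EE library 3 or -0.26 without aged SH library 2). Without overlap, 6 were lower (25% against 10.2% of all genes) and 2 higher. The lower ones included the catalytic subunit Prkacb of protein kinase A at 246, 249.6 and 193 RPM in aged EE and 360.3, 338 and 353 RPM in aged SH (log2 difference -0.62, SE 0.19). Another was the phosphodiesterase Pde4d at 11.9, 14.7 and 8.48 RPM in aged EE and 21.6, 29.3 and 16.6 RPM in aged SH (log2 difference -0.91, SE 0.29).

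Immediate-early genes, which neurons transcribe within minutes of activity, were mostly higher in aged EE. Of 20 tested, 17 were higher with a median log2 difference of 0.50, and 3 of them, Arc, Egr2 and Npas4, did not overlap. Arc, which regulates receptor endocytosis at synapses, was at 64.3, 79.8 and 96.6 RPM in aged EE and 48.7, 5.67 and 48.4 RPM in aged SH. Aged SH library 2 was far below the others, as was young EE library 1 at 7.18 RPM, and the log2 difference was 1.70 with an SE of 0.84. Egr1 was at 149, 241 and 316 RPM in aged EE and 188, 110.1 and 150.4 RPM in aged SH, overlapping, and Ier2 at 9.23, 16.1 and 10.2 RPM in aged EE and 6.28, 3.89 and 10.5 RPM in aged SH. Without aged EE library 2, 15 of 20 were higher and the median was 0.32, and without aged SH library 2, 14 of 20 with a median of 0.36. The mean log2 level of the list was 3.73, 4.39 and 3.87 in aged EE and 3.75, 3.09 and 3.65 in aged SH. The groups overlapped on this measure. None of the 20 genes had an unadjusted p under 0.05 in limma.

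Bdnf, the neurotrophin released with activity, was at 82.8, 47.9 and 83.8 RPM in aged EE and 29.3, 35.9 and 18.5 RPM in aged SH. The groups did not overlap and the log2 difference was 1.35 (SE 0.35), but its adjusted p in limma was 0.504, with 0.111 in the likelihood ratio test and 0.0633 in DESeq2. Without aged SH library 3 it was 1.08, and in young mice Bdnf was at 40.96, 51.5 and 39.9 RPM in EE and 22.8, 57.98 and 47.9 RPM in SH. Ntrk2, its receptor, was at 86.4, 82.3 and 62.2 RPM in aged EE and 27.7, 102 and 92.5 RPM in aged SH, where aged SH library 1 was low and the other 2 lay above aged EE. Sort1, which sorts the precursor of Bdnf, was at 186, 178 and 167 RPM in aged EE and 168, 139.97 and 194 RPM in aged SH. Scg2, secretogranin II, a granule protein that is processed into neuropeptides, was at 149, 146 and 162 RPM in aged EE and 106, 113 and 74.03 RPM in aged SH, higher without overlap (log2 difference 0.66, SE 0.18).

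Genes of synaptic vesicle release included abundant transcripts that were lower in aged EE. Of 27 tested, 15 were higher and 12 lower (median 0.06), and 3 higher and 7 lower genes did not overlap, so 25.9% of the list was lower without overlap against 10.2% of all genes. Snap25, a SNARE protein of the presynaptic membrane, was at 2614, 2805 and 2784 RPM in aged EE and 3902, 3171 and 4760.2 RPM in aged SH (log2 difference -0.51, SE 0.17). Syn2, synapsin II, which tethers vesicles, was at 607, 707 and 679.7 RPM against 892, 845 and 1120.02 RPM (log2 difference -0.51, SE 0.18). In both genes the 3 aged EE libraries were close to each other and below the young EE libraries as well. Cplx2, a complexin, was at 1908, 1789 and 1939 RPM in aged EE and 1843, 1603 and 2329 RPM in aged SH, without separation.

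Among receptors, 16 ionotropic glutamate receptor genes had a median of -0.13, with 7 higher and 9 lower (median 0.00 without aged EE library 1), and the 3 that did not overlap were all higher. Grin1, the obligatory NMDA receptor subunit, was at 55.2, 51.3 and 51.6 RPM in aged EE and 28.04, 40.7 and 30.3 RPM in aged SH, higher without overlap (log2 difference 0.68, SE 0.21). Grin2a was at 2.71, 1.91 and 1.43 RPM in aged EE and 0.999, 1.37 and 1.299 RPM in aged SH, at low levels throughout. The abundant AMPA receptor subunit Gria2 was at 838, 737 and 777 RPM in aged EE and 967, 705 and 1106 RPM in aged SH (log2 difference -0.22, SE 0.17). Gabra5, the GABA receptor subunit of extrasynaptic sites, was at 445, 357 and 471 RPM in aged EE and 352, 360.1 and 258 RPM in aged SH, overlapping by 1 library. Among postsynaptic scaffolds, Dlgap1 was at 497, 486 and 550.4 RPM in aged EE and 432, 405 and 346 RPM in aged SH (log2 difference 0.38, SE 0.13), and 20 genes of that kind had a median of 0.03.

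Potassium channel genes (38 tested, 23 higher, median 0.12, and 0.03 without aged EE library 3) included 4 lower and 2 higher without overlap. Kcnd3, a channel of the A-type current, was at 154, 165 and 148 RPM in aged EE and 249.9, 188 and 278 RPM in aged SH (log2 difference -0.59, SE 0.23), and Kcnq5, a channel of the M-type current, at 56.6, 94.5 and 52.3 RPM in aged EE and 113, 96.4 and 139 RPM in aged SH (log2 difference -0.81, SE 0.23). Cacna1g, a T-type calcium channel, was at 24.4, 32.4 and 16.6 RPM in aged EE and 47.9, 41.5 and 43.3 RPM in aged SH (log2 difference -0.89, SE 0.28). All 3 genes were lowest in aged EE libraries 1 and 3, the libraries with the dorsal marker balance.

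Genes that mark the regions and cell types of the hippocampus gave several of the list medians farthest from 0, and in whole tissue fewer cells of a type and less RNA per cell cannot be told apart. All 10 dentate granule cell genes were higher in aged EE (median 0.80, and 0.60 to 0.95 without any 1 aged library), 5 of them without overlap. The mean log2 level of that list was 4.16, 3.44 and 4.31 in aged EE and 3.25, 3.10 and 2.84 in aged SH. It was highest in aged EE libraries 1 and 3, which have the dorsal marker balance. In young SH it was 4.50, 3.08 and 4.68, and the median difference in young mice was -0.70. Lct, lactase, which is also on the list of dorsal markers, was at 42.7, 14.9 and 81.4 RPM in aged EE and 5.99, 4.41 and 7.94 RPM in aged SH, most of all in aged EE libraries 1 and 3 (log2 difference 2.55, SE 0.77). Among young SH libraries it was at 40.3, 3.74 and 35.1 RPM, so libraries 1 and 3 of that group, whose dorsal minus ventral value was 1.14 in both, were high as well. Sema5a was at 16.2, 10.8 and 18.6 RPM in aged EE and 6.06, 8.19 and 4.18 RPM in aged SH (log2 difference 1.25, SE 0.42). Of 17 ventral markers 13 were lower (median -0.74), with Nr2f1 at 62.4, 76.98 and 48.5 RPM in aged EE and 108, 89.8 and 114 RPM in aged SH and Col5a1 at 2.13, 6.74 and 3.87 RPM in aged EE and 8.56, 13.2 and 9.38 RPM in aged SH. Without aged EE library 2 the ventral median was -1.03.

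Markers of inhibitory interneurons were lower for 10 of 12 genes (median -0.33). Kit, a receptor kinase of interneurons, was at 82.7, 102 and 43.8 RPM in aged EE and 146, 104 and 186 RPM in aged SH and Htr3a at 2.86, 3.91 and 1.87 RPM in aged EE and 3.996, 5.25 and 4.33 RPM in aged SH, both lower without overlap and lowest in aged EE library 3. Without that library the median was -0.14. Dcx, doublecortin, which marks immature neurons, was at 10.2, 13.7 and 6.36 RPM in aged EE and 18.3, 14.5 and 21.9 RPM in aged SH, lower in every aged EE library (log2 difference -0.87, SE 0.29), and in the list of neurogenesis genes 10 of 14 were lower (median -0.17, ranging from -0.27 without aged EE library 2 to -0.11 without aged EE library 1). The highest aged EE library (13.7 RPM) was close to the lowest aged SH library (14.5 RPM). Young EE libraries had 17.9, 18.9 and 21.6 RPM of Dcx, and young SH 11.2, 20.2 and 18.2 RPM. The aged SH libraries overlapped the young ones, and so did aged EE, where library 2 lay above young SH library 1.

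Glial genes were closer to level. The 15 astrocyte genes had a median of 0.06 with none separating the groups, Slc1a2, the main glutamate transporter, being at 2057, 2010.4 and 1908 RPM in aged EE and 2391, 1845 and 2034 RPM in aged SH. Of 16 microglia genes 9 were higher (median 0.03), with C1qb at 63.1, 50.02 and 60.8 RPM in aged EE and 36.03, 40.1 and 49.7 RPM in aged SH, higher without overlap. Oligodendrocyte genes were higher for 14 of 20 (median 0.19, ranging from 0.12 without aged SH library 2 to 0.31 without aged EE library 2), with 4 higher without overlap. Mbp was at 3918, 2574 and 4424 RPM in aged EE and 2146, 1699 and 3755 RPM in aged SH, with overlapping groups. Aspa, which breaks down N-acetylaspartate in oligodendrocytes, was at 12.1, 7.99 and 10.1 RPM in aged EE and 5.49, 6.09 and 3.46 RPM in aged SH (log2 difference 0.95, SE 0.44). Endothelial genes were lower for 14 of 17 (median -0.23), but for 10 of 17 without aged SH library 3 (median -0.10), and the median was -0.12 without aged EE library 3. Cdh5, the cadherin of endothelial junctions, was at 4.76, 6.99 and 6.18 RPM in aged EE and 7.99, 10.6 and 10.5 RPM in aged SH, although Slco1c1, a thyroid hormone carrier of brain vessels, was at 41.8, 55.4 and 66.6 RPM in aged EE and 29.8, 42.9 and 32.3 RPM in aged SH, where the highest aged SH library lay just above the lowest aged EE library.

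**Figure D5:**
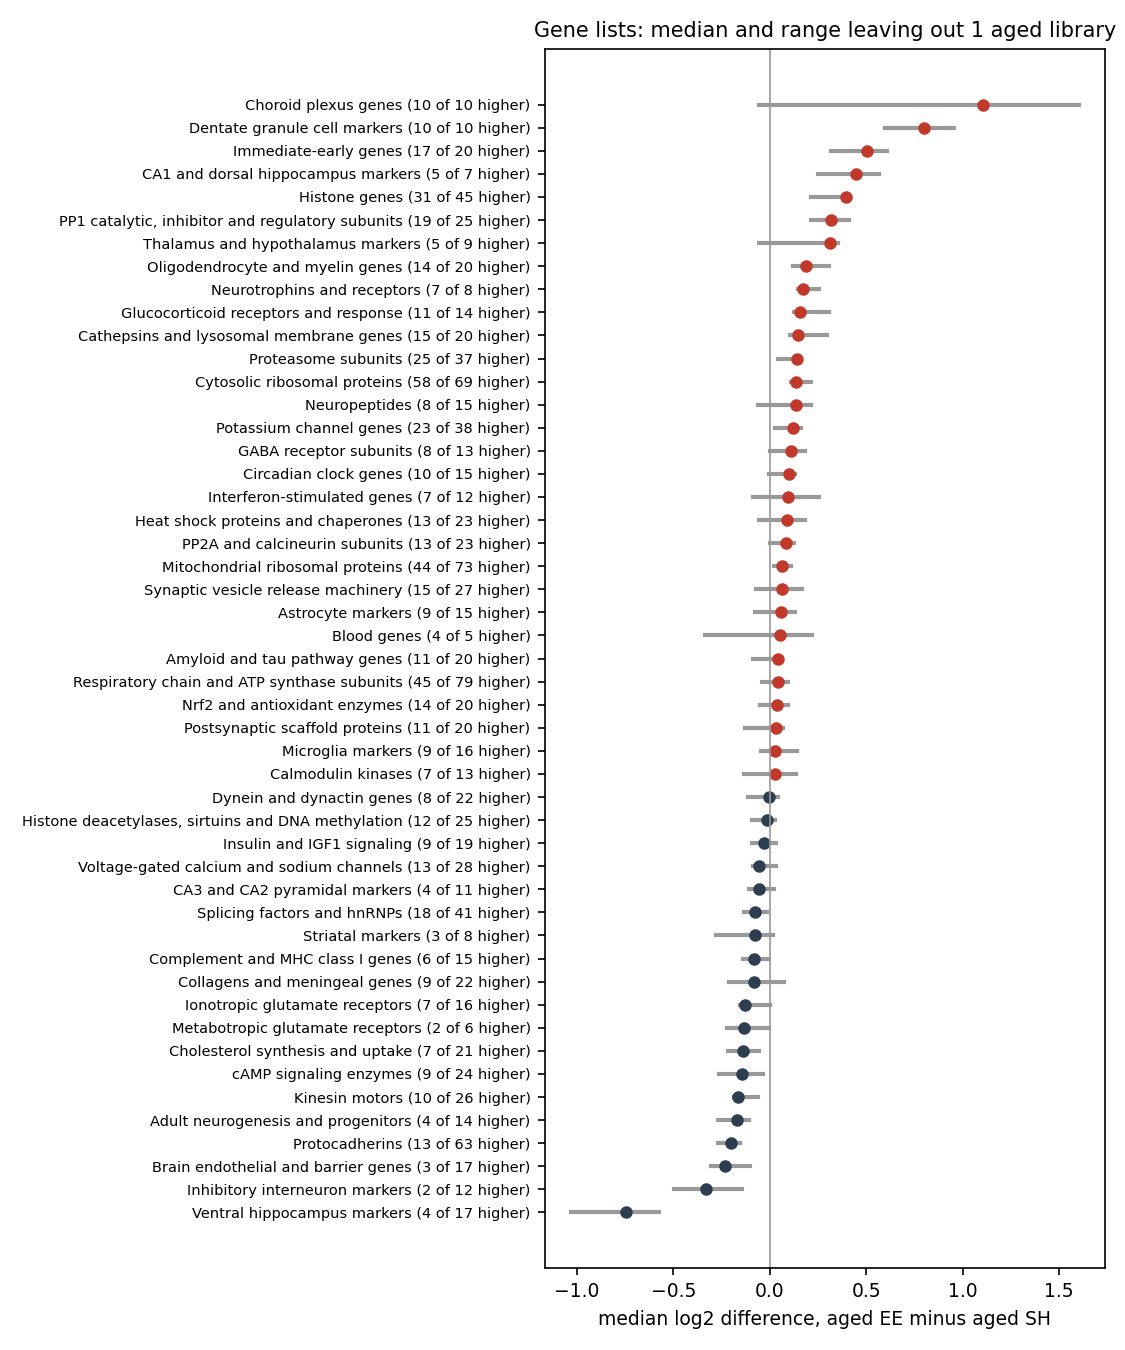
Median log2 difference, aged EE minus aged SH, of each gene list with 5 or more genes tested (points), and the lowest and highest median when 1 aged library is left out (bars). The choroid plexus bar reaches down to -0.05, its median without aged EE library 3, and the ventral list stays at -0.57 or lower.

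Lysosomes break down proteins and lipids, and their genes and those of amyloid processing are often studied in the aging brain. Of 20 cathepsin and lysosomal genes 15 were higher (median 0.14), 5 of them (25%) without overlap against 6.52% of all genes. The median ranged from 0.10 without aged SH library 1 to 0.29 without aged SH library 3. Without aged EE library 2, 11 were higher and 9 lower. Ctsz was at 68.6, 58.9 and 94.6 RPM in aged EE and 37.1, 46.3 and 33.2 RPM in aged SH (log2 difference 0.91, SE 0.26) and Ctsb at 317, 366 and 321 RPM in aged EE and 224, 319.5 and 190.2 RPM in aged SH. Ctsd, the most abundant of them, was at 519, 479 and 563 RPM in aged EE and 575, 1909 and 454 RPM in aged SH, and the 1909 RPM of aged SH library 2 alone gave its log2 difference of -0.61, which was 0.02 without that library. Sorl1, a sorting receptor for the amyloid precursor protein, was at 80.4, 67.99 and 75.2 RPM in aged EE and 54.3, 46.6 and 49.1 RPM in aged SH (log2 difference 0.57, SE 0.17), and Aph1a, a subunit of gamma-secretase, at 39.9, 36.4 and 45.6 RPM in aged EE and 17.1, 33.7 and 28.9 RPM in aged SH (log2 difference 0.65, SE 0.25). App itself was at 1297, 2087 and 1567 RPM in aged EE and 1265, 1992 and 1112 RPM in aged SH and Apoe at 1724, 1261 and 1218 RPM in aged EE and 956, 1353 and 1657 RPM in aged SH, neither separated. The 20 genes of the amyloid and tau pathways had a median of 0.04, with 4 higher and 2 lower without overlap.

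Among genes of hormone and stress responses, 11 of 14 glucocorticoid-responsive genes were higher (median 0.15). The median ranged from 0.13 without aged EE library 1 to 0.31 without aged SH library 1. Without aged SH library 3, 8 were higher and 6 lower. Zbtb16 was at 22.8, 24.6 and 26.9 RPM in aged EE and 20.1, 17.6 and 16.9 RPM in aged SH (log2 difference 0.43, SE 0.15) and the metallothionein Mt2 at 758, 499 and 824 RPM in aged EE and 499.8, 436 and 331 RPM in aged SH, where aged SH library 1 reached the lowest aged EE library. Per1, a clock gene that also answers glucocorticoids, was at 15.7, 16.1 and 21.8 RPM in aged EE and 13.8, 12.5 and 11.1 RPM in aged SH. Hsp90ab1, a chaperone of steroid receptors, was at 1514, 1813 and 1623 RPM in aged EE and 1641, 1913 and 431 RPM in aged SH and Akt1, a kinase of insulin signaling, at 361, 313 and 298 RPM in aged EE and 349, 289 and 32.5 RPM in aged SH. In both, aged SH library 3 alone was low, as was young SH library 2 among the young (238, 23.8 and 395 RPM of Akt1). Insulin and IGF1 signaling genes had a median of -0.03, with 4 of 19 lower without overlap, among them Igf1r at 85.4, 109 and 105 RPM in aged EE and 145, 116 and 126 RPM in aged SH and Foxo1 at 16.3, 15.5 and 16.7 RPM in aged EE and 22.8, 21.3 and 21.1 RPM in aged SH. Chromatin enzymes had a median of -0.02, with Hdac5 at 59.1, 92.7 and 68.7 RPM in aged EE and 43.8, 58.5 and 34.1 RPM in aged SH and Tet3, a 5-methylcytosine dioxygenase, at 6.01, 10.2 and 7.92 RPM in aged EE and 6.49, 1.47 and 3.897 RPM in aged SH.

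Lists of housekeeping genes had medians near 0, although single members differed more. Of 69 genes of the cytosolic ribosome 58 were higher with a median of 0.14, 10 of them without overlap, where TMM scaling shifts all genes upward by a median of 0.04. Rps26 was at 481, 601 and 548 RPM in aged EE and 392.2, 398 and 306 RPM in aged SH (log2 difference 0.58, SE 0.16) and Rpl17 at 1212, 1432 and 1392 RPM in aged EE and 869.99, 1146 and 967 RPM in aged SH, both without overlap. Without aged SH library 2, 47 of 69 were higher and the median was 0.11, and it was 0.21 without aged SH library 3. Of 79 respiratory chain genes 45 were higher (median 0.04), of 73 mitochondrial ribosomal genes 44 (0.06) and of 37 proteasome genes 25 (0.14, and 0.04 without aged SH library 2). Psmb10 was at 23.9, 28.2 and 26.1 RPM in aged EE and 18.8, 22.7 and 13.6 RPM in aged SH and Psmc3 at 147, 141 and 176 RPM in aged EE and 129, 123 and 116 RPM in aged SH. Splicing factors were lower for 23 of 41 (median -0.07). Without overlap, 7 were lower (17.1% against 10.2% of all genes) and 3 higher. Srsf6 was at 44.3, 41.8 and 47.3 RPM in aged EE and 66.9, 59.2 and 55.1 RPM in aged SH (log2 difference -0.44, SE 0.16).

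In 2 lists many genes share the same reads, so their counts overstate what was measured. The 45 histone genes (31 higher, median 0.40) give 27 distinct measurements, of which 18 were higher with a median of 0.32. Without aged EE library 3 the median over the 45 was 0.21. Hist2h2ab, in a set of 4 genes with near-identical values, was at 17.3, 16.1 and 22.5 RPM in aged EE and 6.14, 11.9 and 11.98 RPM in aged SH, higher without overlap. Of 63 protocadherin genes 50 were lower, but 22 gamma genes that end in shared exons differ by no more than 5% in any library, as do 14 alpha genes, and the 29 distinct measurements were 13 higher and 16 lower with a median of -0.03. The gamma set, with Pcdhgb6 as an example, was at 168, 122 and 165 RPM in aged EE and 274, 791 and 204 RPM in aged SH, where aged SH library 2 was more than 2-fold above every other library (log2 difference -1.24, SE 0.40, and -0.65 without that library).

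The housing difference of aged mice was set against that of young mice, which share no library with it. No gene passed the test of the difference between the 2 housing effects (limma, smallest adjusted p 0.25), although 1551 genes (12.2%) had an unadjusted p under 0.05. The likelihood ratio test called 178 genes (1.4%) and DESeq2 307 (2.41%). Of the 24 leading genes, 17 had overlapping young groups and 7 had young groups that separated in the opposite direction. Pfn1 was at 51.99, 54.3 and 50.3 RPM in young EE and 83.8, 60.5 and 71.4 RPM in young SH, so that EE was the higher group in aged mice and the lower group in young mice. Over all genes, groups did not overlap in either age and pointed in opposite directions for 205 genes (1.61%) and in the same direction for 85 (0.667%). The 24 leading genes were taken from the 2130 genes (16.7%) whose aged groups did not overlap, and the 205 lie within these. Against the 6 young libraries, the aged EE libraries lay outside the young range for 11 of the 24 leading genes and the aged SH libraries for 7, Dynlrb1 among the latter. Over all genes tested the shares were 6.86% and 3.44%, and since the 24 were picked for separated groups nothing is read from their counts.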

How the data were processed

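Hippocampal SAGE-Seq libraries were read by the authors on the SOLiD system, and 27-base tags were assigned to transcripts of mm9 with 1 mismatch allowed. The deposited signal is the read count of a transcript divided by 1 factor per library, rounded to 4 significant digits and not scaled for depth. Further columns, which hold fold changes and p-values of the study's own comparisons, and 11 tables that repeat the same libraries were not used. Each library was divided by its total, and of the 29973 entries the one with the highest summed signal was kept for each of 23362 gene names. Genes with at least 1 RPM in at least 3 of the 12 libraries (12744) were tested on log2(RPM + 0.5) with limma 3.58.1 (R 4.3.3, moderated variances with a trend), all 4 groups of 3 in 1 fit without covariates, with Benjamini-Hochberg adjustment and a threshold of 0.1. Differences on that scale understate those of low genes. Whole reads were recovered in every library (100% of values within 0.1 read) and were tested with edgeR 4.0.16 and DESeq2 1.42.0, which gave no adjusted p for 2233 genes. The limma step was tested on simulated data.

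Named genes were those past the threshold, the 12 higher and 12 lower genes with the smallest p among genes of at least 5 RPM without overlap, the 2 most abundant and the 2 with the smallest p of each gene list, and the dynein and PP1 members. Folr1, Kcnj13 and Ttr were added after their values were seen. Other genes outside this rule were also picked by their values. They are calls of the count tests or of fits without 1 library, immediate-early genes without overlap, and genes that stood out in aged SH library 2. These additions are not among the 242 named genes. Members and lists were chosen with earlier results of these data known. Alternatives comprised other pseudocounts, filters, scaling, models and leaving out each library. Tags were predicted for 239 of the 242 named genes from GENCODE gene models on mm9, not from reads. Each library is 1 animal, so p-values measure spread between animals, and reads carry no molecular identifiers.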

Additional observations from a re-analysis of the deposited data

Results flagged for a closer look

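Among the 24 leading genes, 7 had 3 EE libraries on one side of the 3 SH libraries in aged mice and on the other side in young mice. Over all genes, 2130 had separated aged groups, and 205 of these had young groups separated the opposite way. The 24 were picked for separated aged groups and small p, and nothing is read from the count of 7. The difference between both log2 housing effects was 1.27 for Pfn1, 1.27 for Bok and 1.17 for Zbtb1, which were higher in EE among aged and lower among young mice. It was -1.04 for Rcn1, -1.23 for Kcnt1, -2.24 for Atm and -1.18 for Cav2, which were lower in EE among aged and higher among young mice. None of the 7 passed the test of that difference in limma, where the smallest adjusted p over all genes was 0.25. Bok was at 66.0001, 63.5 and 51.8 RPM in young EE and 80.1, 66.1 and 72.8 RPM in young SH, and Kcnt1 at 31.5, 32.1 and 33.2 RPM and 21.1, 28.6 and 27.1 RPM. Atm was at 29.04, 17.1 and 19.4 RPM in young EE and 14.7, 9.12 and 15.98 RPM in young SH.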

How the results depend on the processing

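With 3 animals a side, the count of genes past the threshold for aged housing, 1 by default, was 0 with no filter on low values, with the replicate block, with no variance trend, in the 6 aged libraries alone, with 2 libraries per group, over every transcript entry, by edgeR's quasi-likelihood test and at a threshold of 0.05. It was 16 by edgeR's likelihood ratio test and 103 by DESeq2. Leaving out 1 library gave 0 to 5 genes, with 5 without aged SH library 2 (Higd1a, Strn4, Park7, Dynlrb1 and Vasp), 2 without aged SH library 3 and 0 without any 1 aged EE or young library. Replicate numbers are not stated to mark shared litters or days, and deviations of same-numbered libraries correlated from -0.24 to 0.21, so the block (adjusted p of Dynlrb1 0.239) describes numbers only. The count for housing by age, 0 by default, was 178 by the likelihood ratio test and 307 by DESeq2, and ranged from 0 to 334 when 1 library was left out, with 334 without young SH library 2, 52 without young EE library 1 and 1 without aged SH library 3. The cause of these differences was not tested.

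For the 242 named genes, 5858 of 6028 alternative values kept the direction of the difference, and 65 moved by more than the spread. Many of these alternatives cannot change the difference. Leaving out a young library, other filters, the replicate block, no variance trend, the aged libraries alone and every transcript entry change only the p-value or the set tested. The count therefore overstates stability. Dynlrb1, the only gene past the threshold by default, kept its direction in every alternative. Low totals in aged SH library 3 (6928729 reads) limit genes near 1 RPM.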

Other observations

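Aged SH library 2 held 54 genes at least 2-fold above all 11 other libraries, which give 32 distinct measurements since 22 of them are gamma protocadherins with shared 3′ exons. For 38 of the 54, aged EE lay below aged SH without overlap. Eef1a1, a translation elongation factor, was at 9176 RPM in that library and at 2469 to 4390 RPM in the others, and its log2 difference of -0.81 became -0.39 without it. Rpl10a, a ribosomal protein, was at 3386 RPM there and at 164 to 1192 RPM elsewhere, and Sncb, beta-synuclein, at 1469.7 RPM against 322 to 731 RPM. In the other direction, 10 to 57 genes per library were at least 2-fold below all 11 other libraries, with 10 to 19 such genes in aged EE libraries and 16 to 40 in aged SH libraries.

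Collagen and meningeal genes were higher for 9 and lower for 13 of 22 (median -0.08, and 0.08 without aged SH library 3), and circadian clock genes higher for 10 of 15 (median 0.10, and -0.01 without aged EE library 3). Cholesterol synthesis genes were lower for 14 of 21 (median -0.14, and -0.06 without aged EE library 3), 3 of them without overlap. Kinesin motors, which carry cargo away from the cell body, were lower for 16 of 26 (median -0.16, and -0.06 without aged SH library 3). No gene of these lists passed the threshold in limma. Only 9 microRNA entries passed the filter, so the data say little on microRNAs.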
